A study of Mus musculus with 8 samples.

Results

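The genes described here are the tumour necrosis factor (TNF) superfamily: 46 genes for its ligands, its receptors and the adaptor proteins that the receptors bind. They were chosen by gene name, as every gene spot whose symbol was 1 of the 46, with earlier results of these data known. Of these genes 45 had a probe, giving 64 of the 41174 probes and 127 of the 43379 gene spots on each array. Tnfsf13 (APRIL) had no probe under its own name, and a probe for a read-through transcript of Tnfsf12 and Tnfsf13 was not counted. RNA was measured on Agilent arrays of 1 colour (Cy3), 4 for CT26-FL3 and 4 for CT26. CT26-FL3 is a highly liver-metastatic mouse colon cancer line obtained from CT26 through 3 successive passages in mouse liver. Its liver lesions were minced, digested with collagenase, DNase and hyaluronidase, and cultured for a short time to lose the stromal cells. CT26 is the parental line, which metastasises poorly to the liver. Both lines are of the BALB/c strain, are labelled male, and were grown in the same serum-containing medium, so every sample is a cultured cell line. The labels give 1 selected line and do not say how many lesions it came from. The comparison asks how the family differs in the metastatic line from its parent.

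TNF superfamily ligands are mostly membrane proteins that act as trimers, at the cell surface or after they are shed by proteases. Their receptors have no enzyme activity of their own. Death domain receptors recruit TRADD, FADD and RIPK1 and can lead to caspase activation and cell death, while most other receptors bind TRAF proteins directly and activate NF-kappaB and MAP kinases. Decoy receptors bind ligand without passing the signal on. In tumours the family is known for its part in inflammation, lymphocyte costimulation and, through RANK ligand, RANK and osteoprotegerin, bone turnover.

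Promoter sequences are shown for 4 ligand genes whose values lead the results below: the B cell survival factor Tnfsf13b, Tnf and its chromosomal neighbour Ltb, and RANK ligand, Tnfsf11. Each is the 250 bases before the first start that RefSeq lists for the gene (build GRCm38.p6), written 5′ to 3′ on the strand of the gene, with capitals marking matches to the motifs searched. Tnfsf13b is at chr8:10006217-10006466 on the plus strand. Tnf is at chr17:35202008-35202257 on the minus strand, Ltb at chr17:35194257-35194506 on the plus strand and Tnfsf11 at chr14:78308044-78308293 on the minus strand.
Tnfsf13b: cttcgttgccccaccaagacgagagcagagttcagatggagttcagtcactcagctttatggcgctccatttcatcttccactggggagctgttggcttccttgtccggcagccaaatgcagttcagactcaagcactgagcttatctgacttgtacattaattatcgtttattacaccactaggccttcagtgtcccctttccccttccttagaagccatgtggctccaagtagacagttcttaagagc
Tnf: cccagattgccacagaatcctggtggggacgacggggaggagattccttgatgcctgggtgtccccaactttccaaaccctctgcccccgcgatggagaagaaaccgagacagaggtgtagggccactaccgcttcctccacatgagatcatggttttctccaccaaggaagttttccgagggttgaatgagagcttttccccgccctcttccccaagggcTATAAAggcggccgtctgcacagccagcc
Ltb: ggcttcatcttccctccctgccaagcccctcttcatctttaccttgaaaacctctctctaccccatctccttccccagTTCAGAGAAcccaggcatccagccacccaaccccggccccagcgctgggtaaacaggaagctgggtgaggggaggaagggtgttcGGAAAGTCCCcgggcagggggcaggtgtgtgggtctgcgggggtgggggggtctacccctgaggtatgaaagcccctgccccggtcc
Tnfsf11: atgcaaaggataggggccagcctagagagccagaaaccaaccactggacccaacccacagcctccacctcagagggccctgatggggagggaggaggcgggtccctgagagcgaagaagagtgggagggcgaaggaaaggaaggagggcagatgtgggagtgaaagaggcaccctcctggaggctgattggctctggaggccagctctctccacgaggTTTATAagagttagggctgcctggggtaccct

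Motifs of 5 kinds were searched on both strands. The TATA box was TATAAA. The AP-1 motif was TGANTCA. The STAT motif was TTCNNNGAA. The IRF and NF-kappaB motifs were searched by their consensus. The window of Tnf held TATAAA on the strand of the gene, from 29 to 24 bases before the start. In the window of Tnfsf11 the match, from 32 to 27 bases before the start, was on the opposite strand and reads TTTATA as written. Ltb had a match to the NF-kappaB consensus from 87 to 78 bases and a STAT match from 172 to 164 bases before its start. None of the 5 motifs was in the Tnfsf13b window shown, while its other listed start had matches to AP-1 and IRF. No match overlapped another in the windows shown. RefSeq windows were matched for 36 of the 46 genes (41 windows). The NF-kappaB consensus was in 4 of the 41, those of Ltb, Tnfrsf8, Tnfrsf9 and Traf3, against 3.90% of all 32851 windows. AP-1 was in 5 of the 41 (6.75% of all windows), STAT in 8 (7.02%), IRF in 3 (2.98%) and TATA in 6 (12.4%). These are matches of letters and were not tested.

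Arrays of 1 line resembled each other closely: values correlated across probes at r from 0.997 to 0.998 within a line and from 0.987 to 0.988 between lines, although probes are not independent replicates. The number of arrays, 4 per line, limits the precision. Values below are scaled intensities, in which the 75th percentile of each array's spots is 1000. The tests compare 1 probe between arrays, never 1 probe with another. Sums over marker genes add different probes and are compared only between arrays. Where a probe is called brighter or dim, or makes up most of a sum, this concerns its signal and not the amount of RNA. A probe was called above the detection limit on an array if its intensity exceeded 2.6 times the typical (median) standard deviation of that array's 153 negative-control spots. This limit lay from 16.9 to 23.2 intensity units, highest on CT26 replicate 4. The test took the 23068 probes that passed the limit on 4 or more arrays. Marker genes set a limit on how the lines can be described. Of 18 colon epithelium genes 7 entered the test. Of these 6 were higher in CT26-FL3, namely Cdh17, Cdx2, Krt18, Krt20, Krt8 and Lgals4, and Cldn3 did not pass. Over the 15097 genes and other features taken with 1 probe each, 23.6% were higher and 25.3% lower. Of the 18 genes 9 were above the limit on no array, among them Epcam, Cdh1, Krt19, Cdx1 and Vil1. The markers Adgre1 and Ptprc of macrophages and leukocytes, Cd3d, Cd8a and Ncr1 of T and NK cells, Pecam1 and Cdh5 of endothelium and Alb of hepatocytes were likewise above the limit on no array. Other genes of these lists were detected: of 14 endothelial genes 4 were tested, with Plvap and Tie1 higher and 2 not past the threshold, and of 11 hepatocyte genes with a probe 4 were tested, with Apoa1 higher, Ass1 lower and 2 not past the threshold. In such bulk RNA, fewer cells of a type and less RNA per cell cannot be told apart.

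Of the 64 probes, 42 entered the test, covering 31 genes, and 32 were above the limit on all 8 arrays. Cd27, Cd40, Cd40lg, Fasl, Lta, Tnfrsf13c, Tnfrsf19, Tnfrsf21, Tnfrsf8, Tnfsf14, Tnfsf18, Tnfsf4 and Tnfsf8 were above the limit on no array, among them 7 of the 16 ligand genes with a probe. These 13 are mostly genes known from lymphocytes and antigen-presenting cells, such as CD40 ligand (Cd40lg), Fas ligand (Fasl) and OX40 ligand (Tnfsf4). Their probes averaged from 3.29 to 14.3 scaled units in CT26-FL3 and from 3.74 to 14.01 in CT26. Tnfrsf13b (TACI) was above the limit on 1 CT26 array only, at 20.7, and was not tested. All 9 adaptor probes were above the limit everywhere.

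**Figure D1:**
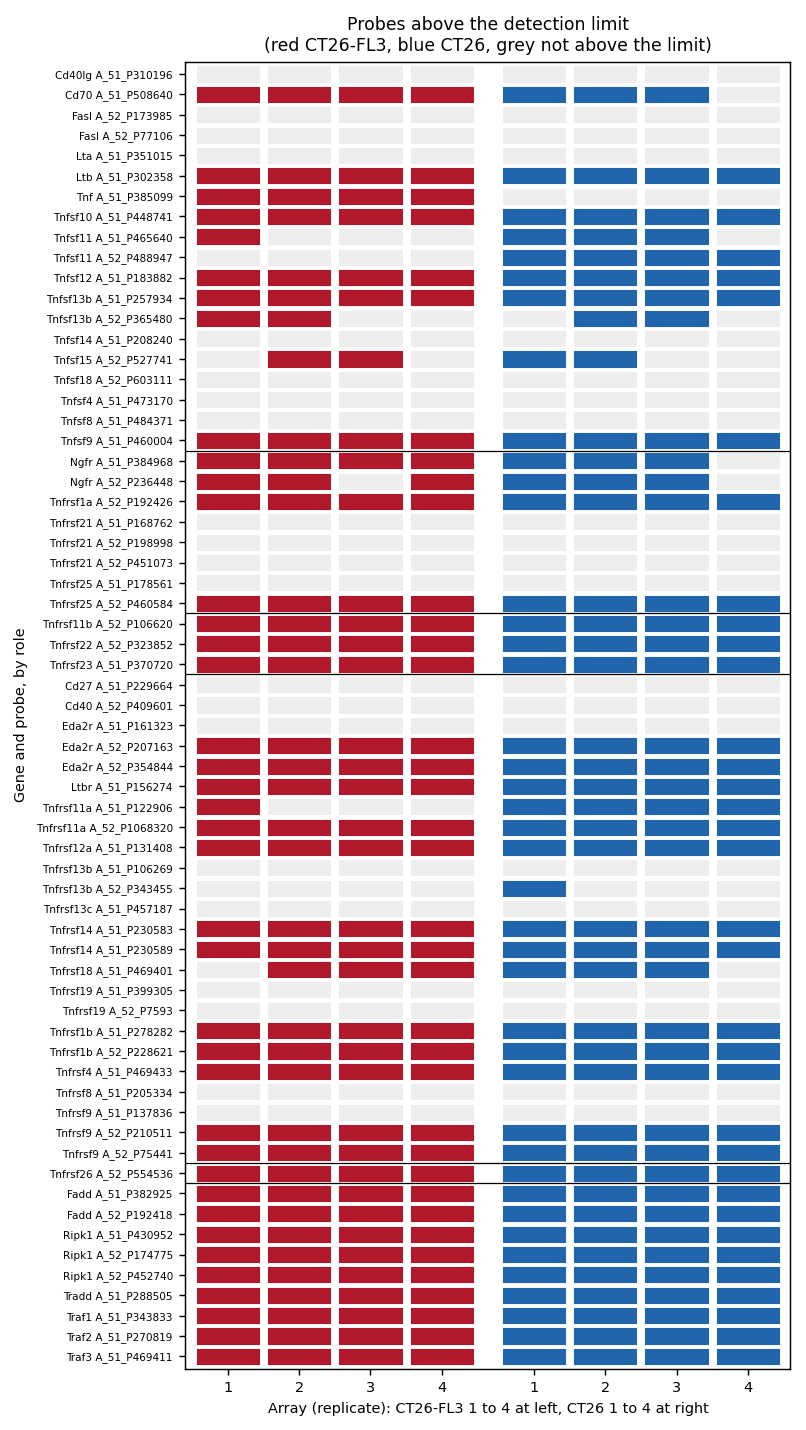
Each row is 1 of the 64 probes, grouped from top to bottom as ligands, death domain receptors, decoy receptors, TRAF-binding receptors, Tnfrsf26 and adaptors, and each cell is 1 array, CT26-FL3 1 to 4 at left and CT26 1 to 4 at right. A coloured cell is above the detection limit of its array and a grey one is not: the probe of Tnf is coloured on all CT26-FL3 arrays and no CT26 array, and 1 Tnfsf11 probe on all CT26 arrays and no CT26-FL3 array.

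In the test, 12 probes of 10 genes were higher and 11 probes of 8 genes were lower in CT26-FL3, and 19 did not pass (limma, adjusted p under 0.05 over all 23068 probes). That is 54.8% of the tested probes, against 48.4% over all probes tested, so the share of calls lies near the background. By direction, 22.6% of all probes were higher and 25.8% were lower. Changes of at least 2-fold were made by 8 of the 42 probes (19.0%), against 4.79% over all probes, and changes of at least 1.5-fold by 13 (31.0%), against 12.3%. These shares use fitted values, also for the probes of Tnf and Tnfsf11 that have only a bound. The 2-fold share depends on dim probes. When 50 units were added to every value first, only Tnfsf13b (log2 2.76), Tnfrsf11b (-1.44) and 1 Tnfrsf11a probe (-1.25) stayed at 2-fold or more. The share over all probes is not given on that scale, so the family cannot be compared with all probes there. The 4 arrays of 1 line lay wholly beyond those of the other for 23 probes (54.8%), against 46.1% over all probes. The median log2 fold change was 0.07 for the family and -0.02 for all probes, and the median size was 0.29 for the family and 0.21 for all probes. The shares describe this list and were not tested as a set.

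**Figure D2:**
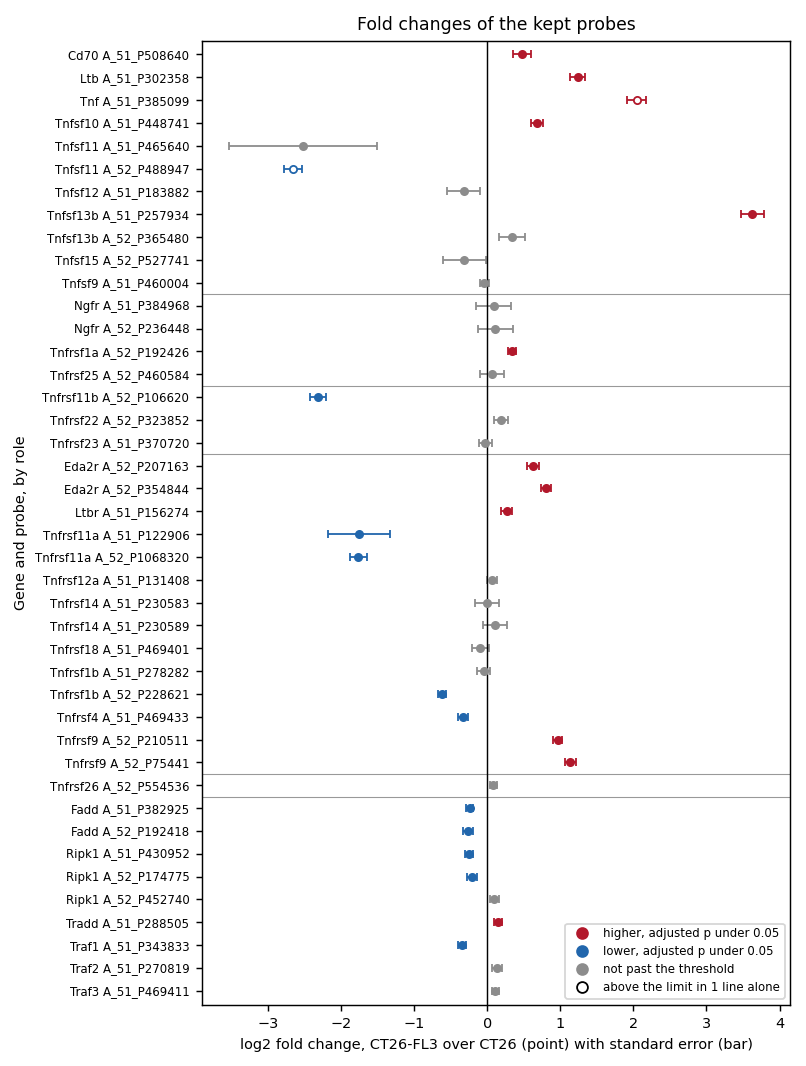
The 42 tested probes run down the axis by role, with the log2 fold change of CT26-FL3 over CT26 as a point and its standard error (SE) as a bar, n = 4 arrays per line. The largest rise is Tnfsf13b at 3.63, the 2 probes of Tnfrsf11a and the probe of Tnfrsf11b lie between -1.75 and -2.32, and the adaptors at the bottom all lie within 0.35 of 0.

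Among the ligands, 5 of the 11 tested probes were higher, 1 was lower and 5 did not pass. Tnfsf13b, which encodes BAFF, a survival factor for B cells, was 643, 674, 635 and 648 scaled units in CT26-FL3 replicates 1 to 4, against 46.7, 43.4, 50.1 and 75.2 in CT26. Every CT26-FL3 array was far above every CT26 array, and all 8 were above the limit. The rise was 12.4-fold (log2 3.63, SE 0.15, adjusted p = 4.04e-07), and it was 3.87 for replicates 1 and 2 and 3.39 for replicates 3 and 4 taken alone. These pairs are array sets, meaning arrays whose file names share a number. A second Tnfsf13b probe, designed on a cDNA clone record, had smaller values: it was 23.6, 29.1, 19.0 and 17.0 in CT26-FL3, against 13.5, 16.8, 20.3 and 18.6 in CT26. The groups overlapped near the limit (log2 fold change 0.34, SE 0.18, adjusted p = 0.156), with 0.80 in the first array set, where it passed (adjusted p = 0.0234), and -0.11 in the other. The transcripts that the probes detect were not analysed here.

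Of the receptors of BAFF, Tnfrsf13c, the BAFF receptor proper, was above the limit on no array and Tnfrsf13b on 1. Tnfrsf17 (BCMA), which is outside the 46 genes, was above it on all 8 arrays, at 428 ± 14.3 scaled units in CT26-FL3 and 511 ± 15.1 in CT26 (SD, n = 4 each), and was lower with a log2 fold change of -0.25. BAFF is made mainly by myeloid cells, so macrophage genes are given beside it. Of 18 macrophage and Kupffer cell genes 11 were tested: Aif1, Cd68, Mpeg1 and Mrc1 were higher, and Cd14 and Lyz2 were lower. The other 5, C1qa, C1qb, Csf1r, Marco and Tyrobp, did not pass. Of these, C1qb, Marco and Tyrobp were above the limit on all 8 arrays. The summed scaled intensity of the 18 genes ran from 4127 to 4525 in CT26-FL3, against 9323 to 9791 in CT26. Cd14 made up most of this sum, and without it the range was 1211 to 1292 in CT26-FL3, against 951 to 1052 in CT26. The remaining genes of the list, Adgre1, Clec4f, Timd4, C1qc, Itgam, Fcgr1 and Ptprc, were above the limit on no array. Of the T, NK and B cell genes Lck and Pax5 were higher, 3 others did not pass the threshold, and 12 of 19 were above the limit on no array. The Pax5 spot failed on CT26 replicate 1, so Pax5 was left out of their sum, which ran from 504 to 567 in CT26-FL3, against 283 to 350 in CT26. Without Lck it was 223 to 290 in CT26-FL3, against 227 to 298 in CT26. Pax5 averaged 791 in CT26-FL3 and 109 on the other 3 CT26 arrays. Their part in the rise of Tnfsf13b was not tested.

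Tnf encodes the inflammatory cytokine TNF itself. Its probe, printed in 10 spots, was 49.5, 51.3, 40.0 and 48.1 in CT26-FL3, against 13.5, 13.03, 9.45 and 10.2 in CT26. All CT26-FL3 arrays were above the limit and no CT26 array was, so Tnf was at least 2.46-fold higher in CT26-FL3. For this bound, each CT26 array was given the dimmest signal that passed its limit, or the signal of the probe where that was higher. The limma test (adjusted p = 4.53e-06) was of the fitted log2 fold change of 2.04, which uses the values below the limit, and not of the bound. Ltb, the membrane anchor of lymphotoxin heterotrimers and the next gene to Tnf on the chromosome, was 151, 148, 127 and 141 in CT26-FL3, against 52.7, 60.5, 72.0 and 56.5 in CT26. The lines did not overlap (log2 1.24, SE 0.10, adjusted p = 1.84e-05), with 1.40 in the first array set and 1.07 in the other. Lta, on the other side of Tnf, encodes the partner that lymphotoxin beta needs to form its heterotrimer, and was above the limit on no array. Lymphotoxin beta is known from lymphocytes, whose marker values are given above. Their part in this result was not tested.

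Tnfsf10 encodes TRAIL, a ligand that can induce apoptosis. It was 531, 455, 519 and 458 in CT26-FL3, against 319, 331, 303 and 269 in CT26, without overlap (log2 0.68, SE 0.08, adjusted p = 0.000194). Cd70, the ligand of CD27, was 37.8, 29.5, 27.0 and 32.1 in CT26-FL3, against 23.0, 19.0, 22.6 and 26.3 in CT26. Its lowest CT26-FL3 array was just above its highest CT26 array (log2 0.47, SE 0.12, adjusted p = 0.0126). This call ended when the local background was added back (adjusted p = 0.0989) and within replicates 3 and 4 (adjusted p = 0.202). Its receptor Cd27 was above the limit on no array. Tnfsf9 (4-1BB ligand), a direct neighbour of Cd70 on the chromosome, did not pass, with a log2 fold change of -0.04. Tnfsf12 (TWEAK) at -0.32 and Tnfsf15 (TL1A) at -0.31 did not pass either, and their arrays overlapped.

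The ligand, receptor and soluble decoy of the RANK system were each lower in CT26-FL3, the ligand on 1 of 2 tested probes. This system controls the formation of osteoclasts. Tnfsf11, RANK ligand, was 5.22, 6.28, 4.97 and 4.96 on 1 probe in CT26-FL3, against 34.0, 41.3, 32.6 and 27.7 in CT26. The probe was above the limit on all CT26 arrays and on no CT26-FL3 array, so Tnfsf11 was at least 1.76-fold lower in CT26-FL3. The limma test (adjusted p = 7.52e-07) was of the fitted log2 fold change of -2.65 and not of this bound. A second Tnfsf11 probe was brighter on average over all arrays. It was 43.1, 3.60, 5.12 and 5.63 in CT26-FL3, against 295, 24.6, 32.6 and 20.6 in CT26. Replicate 1 was the brightest array of each line on this probe, and the lines overlapped. Its log2 fold change was -2.52 (SE 1.01, adjusted p = 0.0687). Without CT26-FL3 replicate 1 it passed, at -3.32 (adjusted p = 0.0175), as it did within replicates 3 and 4, at -2.27 (adjusted p = 0.00843).

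Tnfrsf11a encodes RANK, the receptor of RANK ligand. Its brighter probe was 67.1, 80.3, 53.6 and 78.1 in CT26-FL3, against 237, 242, 230 and 226 in CT26, without overlap (log2 -1.76, SE 0.12, adjusted p = 6.29e-06). A second probe was 23.7, 10.3, 15.9 and 5.06 in CT26-FL3, against 49.5, 35.0, 48.6 and 30.1 in CT26. It was above the limit on 1 CT26-FL3 array and on all CT26 arrays, and the lines again did not overlap (log2 -1.75, SE 0.43, adjusted p = 0.00899). This call ended within each array set (adjusted p = 0.0632 and 0.0733). Tnfrsf11b encodes osteoprotegerin, a secreted decoy that binds RANK ligand and TRAIL. It was 41.6, 44.4, 30.9 and 36.7 in CT26-FL3, against 178, 204, 180 and 198 in CT26, with every array above the limit. The fitted difference was -2.32 on the log2 scale (SE 0.11, adjusted p = 8.01e-07), with -2.15 in the first array set and -2.49 in the other. When 50 units were added to every value first, which shrinks differences between dim values, the log2 fold change was -1.44 for Tnfrsf11b, -1.25 and -0.51 for the Tnfrsf11a probes and -0.60 for the called Tnfsf11 probe, and all 4 stayed past the threshold. On that scale Tnfsf13b was at 2.76, Ltb at 0.80 and Tnf at 0.65. Osteoprotegerin is also known from mesenchymal cells. Of 16 fibroblast and stellate cell genes 10 were tested, of which 2 were higher and 6 lower in CT26-FL3, and 6, among them Lum, Des and Lrat, were above the limit on no array. Their summed intensity ran from 237678 to 256719 in CT26-FL3, against 232146 to 272333 in CT26. Col1a2 made up most of it, and without it the range was 52892 to 54645 in CT26-FL3, against 54741 to 57153 in CT26. These sums hide opposite changes. Dcn averaged 16435 in CT26-FL3 and 1653 in CT26, and Fap was also higher. Acta2, Col1a1, Col3a1, Cygb, Pdgfra and Pdgfrb were lower, with Col1a1 at 7434 in CT26-FL3 and 12660 in CT26. The part of the fibroblast and stellate cell genes in these results was not tested.

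**Figure D3:**
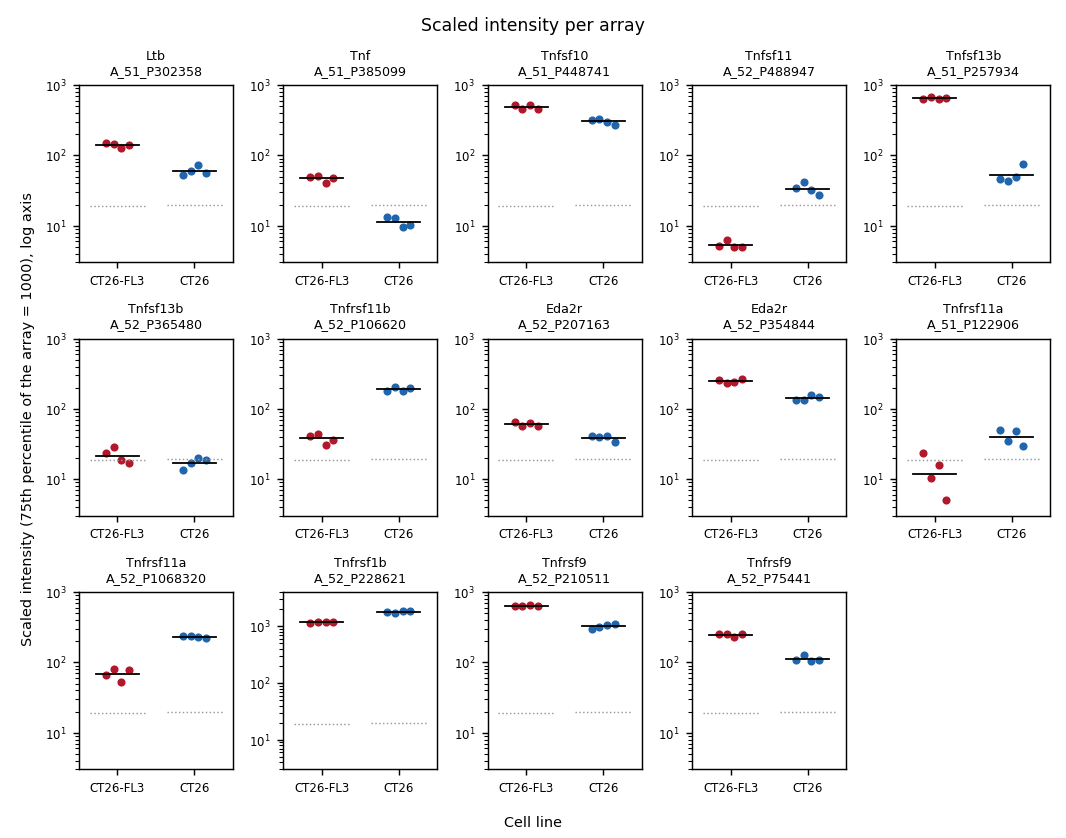
Scaled intensity per array on a log axis for probes that passed the threshold with a fitted change of at least 1.5-fold, and for the second probe of Tnfsf13b, each point 1 array (red CT26-FL3 at left, blue CT26 at right), a solid line at each line's mean log2 value and a dotted line at its mean detection limit. The CT26 points of Tnf and the CT26-FL3 points of Tnfsf11 lie below the dotted line, and the second Tnfsf13b probe lies near it in both lines.

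Among the receptors that bind TRAF proteins, 5 of 14 tested probes were higher, 4 were lower and 5 did not pass. Tnfrsf9 encodes 4-1BB, a costimulatory receptor known from activated T cells. One probe was 253, 253, 229 and 253 in CT26-FL3, against 107, 129, 104 and 109 in CT26 (log2 1.14, SE 0.08, adjusted p = 5.35e-06). Another was 638, 632, 649 and 644 in CT26-FL3, against 299, 320, 347 and 352 in CT26 (log2 0.96, SE 0.06, adjusted p = 3.63e-06). Neither probe overlapped between the lines, while another Tnfrsf9 probe was above the limit on no array. The part of the T, NK and B cell genes given above in this result was not tested. Eda2r is a receptor for an ectodysplasin isoform and a known p53 target gene. It was 257, 236, 240 and 265 on 1 probe in CT26-FL3, against 134, 134, 157 and 149 in CT26 (log2 0.80, SE 0.07). On another it was 65.3, 56.9, 64.0 and 56.4 in CT26-FL3, against 41.7, 40.2, 41.7 and 33.9 in CT26 (log2 0.63, SE 0.08), and both passed (adjusted p = 2.58e-05 and 0.000371). The remaining Eda2r probe was above the limit on no array. Eda, which encodes its ligand, had no probe that entered the test.

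Tnfrsf1b encodes TNFR2, the receptor through which membrane-bound TNF mainly acts. A probe of it was 1137, 1177, 1209 and 1213 in CT26-FL3, against 1785, 1706, 1896 and 1870 in CT26, without overlap (log2 -0.62, SE 0.05, adjusted p = 2.10e-05). A second Tnfrsf1b probe overlapped between the lines at -0.05 (adjusted p = 0.690), so the 2 probes of this gene disagree. Tnfrsf1a, the death domain receptor TNFR1, was 17134 ± 946 in CT26-FL3 and 13479 ± 470 in CT26 (SD, n = 4 each), a log2 fold change of 0.35 (SE 0.06, adjusted p = 0.000975). Ltbr, the receptor for lymphotoxin heterotrimers, was 21730 ± 989 in CT26-FL3 and 18095 ± 1704 in CT26 (SD, n = 4 each), higher by 0.27 on the log2 scale (SE 0.07, adjusted p = 0.0148), although CT26 replicate 4 just passed the lowest CT26-FL3 array. Tnfrsf4 (OX40) was 311 ± 15.7 in CT26-FL3 and 389 ± 30.0 in CT26 (SD, n = 4 each), lower with a log2 fold change of -0.32 (SE 0.07, adjusted p = 0.00439). In fits of 2 arrays against 2, the calls of Ltbr ended in both array sets and those of Tnfrsf1a and Tnfrsf4 in that of replicates 1 and 2 (adjusted p from 0.0694 to 0.205).

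Of the 4 tested probes of death domain receptors only that of Tnfrsf1a passed, and of the 3 decoy receptors only Tnfrsf11b. The remaining receptors did not pass. Tnfrsf12a (Fn14, the TWEAK receptor), was at 0.07 on the log2 scale, and the 2 probes of Tnfrsf14 (HVEM) were at 0.00 and 0.11. Tnfrsf18 (GITR), next to Tnfrsf4 on the chromosome, was at -0.10. Of the death domain receptors, Tnfrsf25 (DR3) was at 0.06 and the neurotrophin receptor Ngfr, which is also in the stellate cell list, at 0.09 and 0.11 on its 2 probes, while Tnfrsf21 (DR6) was above the limit on no array. Mouse Tnfrsf22 and Tnfrsf23, decoy receptors for TRAIL, were at 0.19 and -0.03, and their neighbour Tnfrsf26 at 0.08. These 3 genes lie side by side on the chromosome.

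The adaptors changed little in size: 1 of 9 probes was higher, 5 were lower and 3 did not pass, with a median log2 fold change of -0.21 and none at 1.5-fold. Traf1 was 2275 ± 98.8 in CT26-FL3 and 2891 ± 106 in CT26 (SD, n = 4 each), a log2 fold change of -0.35 (SE 0.05, adjusted p = 0.000624). Fadd, which links death receptors to caspase-8, was lower on both probes, at -0.24 and -0.27 (adjusted p = 0.00485 and 0.0109). Ripk1, the kinase that directs TNFR1 signalling to survival or death, was lower on 2 probes, at -0.25 and -0.21, while the other did not pass at 0.10. The second of these calls ended without any 1 of 4 arrays, CT26 replicate 1 or 3 or CT26-FL3 replicate 1 or 3, with adjusted p from 0.0561 to 0.0750. Tradd, the first adaptor at TNFR1, was higher by 0.15 (adjusted p = 0.0468), and this call ended when any 1 array other than CT26-FL3 replicate 4 was left out (adjusted p from 0.0621 to 0.118). Within either array set alone, no probe of Fadd, Ripk1 or Tradd passed (adjusted p from 0.0664 to 0.574). Traf2 at 0.14 and Traf3 at 0.11 did not pass (adjusted p = 0.130 and 0.0821). Traf2 passed without CT26 replicate 4 (0.20, adjusted p = 0.0248) and Traf3 without CT26-FL3 replicate 1 (0.14, adjusted p = 0.0419). Traf3 also passed after quantile normalization (0.12, adjusted p = 0.0483) and when the log2 values of the authors' deposited table were fitted instead (0.12, adjusted p = 0.0487).

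Of 64 further genes that carry the signal, shed the ligands or answer to the pathway, 61 were tested, each on its brightest probe. In CT26-FL3 24 were higher (39.3%) and 8 lower (13.1%), and 29 did not pass. Over the 15097 genes and other features taken with 1 probe each, 23.6% were higher, 25.3% lower and 49% either. The median log2 fold change was 0.09, against -0.01 over all those features, and no gene reached 2-fold. The largest rises were those of Ikbke, Daxx, Rhbdf2 and Cradd. Ikbke, an IKK-related kinase, was 169 ± 9.67 in CT26-FL3 and 94.6 ± 10.3 in CT26 (SD, n = 4 each), a log2 fold change of 0.84 (SE 0.08). Daxx, a nuclear protein first described as a partner of Fas, was at 0.82 (SE 0.06). Rhbdf2, which carries the TNF-shedding protease ADAM17 to the cell surface, was at 0.81 (SE 0.06). Cradd, a death domain adaptor, was at 0.71 (SE 0.09), with 3 CT26-FL3 arrays since its spot failed on replicate 4.

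The largest falls in that list were in Map2k3, Adam10, Traf5 and Map3k14. Map2k3, a kinase that activates p38, was 2926 ± 116 in CT26-FL3 and 4558 ± 132 in CT26 (SD, n = 4 each), a log2 fold change of -0.64 (SE 0.05). Adam10, a sheddase of several family members, was at -0.47 (SE 0.06), Traf5, an adaptor of OX40 and CD40, at -0.40 (SE 0.05) and Map3k14, which encodes the NF-kappaB-inducing kinase NIK, at -0.26 (SE 0.06). Probes of a gene could disagree: the apoptosis inhibitor Cflar was higher on 5 of its 7 tested probes (0.32 to 0.82, and 0.55 on the brightest), lower on 1 (-0.91) and did not pass on 1, and Birc3 did not pass on its brightest probe (0.14) and was lower on a dim one (-0.98). Cflar and Birc3 are named because of this disagreement, which was seen in the values. Of 12 more genes, receptors and ligands outside the 46 or genes named for their response to TNF, 8 were tested. Fas, the receptor of Fas ligand, was higher by 0.48 on the log2 scale and Tnfaip2 by 0.32, whereas Tnfaip8 was at -0.33, Tnfrsf17 at -0.25, Tnfrsf10b, the mouse TRAIL receptor, at -0.22 and Relt at -0.19, all past the threshold. Of 2 more tested probes of Tnfrsf10b, 1 was lower at -0.35 and 1 did not pass, at 0.13.

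**Figure D4:**
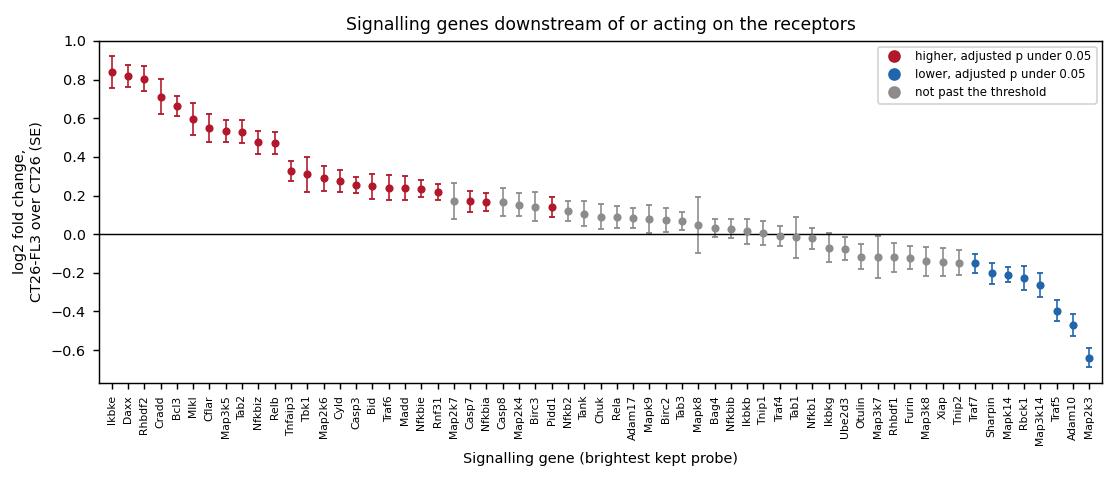
The 61 tested signalling genes are ordered by the log2 fold change of CT26-FL3 over CT26 on their brightest probe, with the standard error as a bar, n = 4 arrays per line apart from Cradd with 3 CT26-FL3 arrays. They run from 0.84 for Ikbke to -0.64 for Map2k3, and the 24 genes past the threshold at the left outnumber the 8 at the right.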

How the data were processed

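Gene expression was measured in 8 samples of cultured mouse cells, 4 of CT26-FL3 and 4 of CT26, grouped by sample name. For every array the authors deposited the intensity of its spots, from which the background was already subtracted, as the values show. The submitters' processing notes name Agilent Feature Extraction without a version. A second deposited file holds log2 values of the probes, centred on each probe's median; its column medians were 0.00, 0.00, 0.02 and 0.00 in CT26-FL3 and -0.01, 0.00, -0.01 and 0.02 in CT26. Against array values centred the same way, r was 0.991 to 0.998 over 15188 bright probes, which settles its scale and direction, while its exact normalization stays unknown.

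Control spots (1639 of 45018) and failed spots were left out. Intensities were divided by each array's 75th percentile (863 to 1234 units), multiplied by 1000 and floored at 1 before log2, and spots of a probe were averaged. Lines were compared per probe in R 4.3.3 with limma 3.58.1 (eBayes after lmFit, two-sided), with Benjamini-Hochberg adjustment over 23068 probes and a threshold of 0.05; the script was tested on simulated data. For genes outside the family the brightest probe was counted. The mark for failed spots and the limit served as filters. The limit was 2.6 times the median of the standard deviations listed for the single negative-control spots of an array. Symbols came from the platform annotation, updated through RefSeq (GRCm38.p6). The files name no build. Samples are called independent in the design text, with no word on separate cultures, so p-values measure only the spread of these samples, and that spread may be technical. Replicate numbers are those of the sample names; deviations of same-numbered arrays correlated at -0.03 to 0.17, so the numbers were not taken as pairs. Per-array values are given for genes that passed with a fitted change of at least 1.5-fold, that have only a bound, or whose probes differ by more than 1 on the log2 scale; those of Cd70 were added after its values were seen. The 4 largest rises and falls of the signalling list are named. The members, the gene lists and the tests were chosen with earlier results of these data known.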

Additional observations from a re-analysis of the deposited data

Results flagged for a closer look

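In 3 of 84 groups of 4 arrays, 1 array stood apart from the rest by Dixon's test at the 95% level. Chance gives about 1 in 20 groups. Tnfrsf14 on its brighter probe had 182.7 scaled units in CT26-FL3 replicate 4, above 118 in the next highest CT26-FL3 array. Ngfr on 1 probe had 15.2 in CT26 replicate 4, below 31.8 in the next lowest CT26 array. Tnfrsf9 on 1 probe had 229 in CT26-FL3 replicate 3, below 253 in the next lowest, and still lay above every CT26 array.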

How the results depend on the processing

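The counts were 12 higher and 11 lower probes of the family and 24 higher and 8 lower signalling genes. With 1 feature per gene 7 family genes were lower, against 8 genes with a lower probe: on brightest probes Tnfsf11 did not pass (adjusted p = 0.0694), and on the mean of its probes Ripk1 did not (-0.12, adjusted p = 0.0738). Without a filter on dim probes 5 signalling genes were lower. Within the array set of replicates 1 and 2, in fits of 2 arrays against 2, 5 family probes were lower and 11 signalling genes were higher and 3 lower. Within the set of replicates 3 and 4 these counts were 7, 12 and 3. With the array set as a block 11 family probes were higher and 11 lower. Replicate numbers did not pair the samples. A replicate block by the numbers of the sample names gave 11 higher and 11 lower family probes and 22 and 7 signalling genes, and the second Tnfsf11 probe passed in it (adjusted p = 0.000225). One by the numbers of the titles, which drops unshared arrays, gave 9 and 7 and 17 and 5. Leaving out each array in turn gave 11 to 12 higher and 10 to 11 lower family probes, and 21 to 24 higher and 7 to 9 lower signalling genes. Every probe that passed kept its direction under the alternatives run. Over single probes and alternatives, 929 values kept direction and side of the threshold, 43 lost the call, 8 gained it and 28 turned direction, the last for probes that had not passed. The values that turned were as follows. Tnfrsf14 was at 0.000582 with a constant of 50, 0.0074 with median centring, 0.0066 with the local background added back and 0.16 within replicates 3 and 4. Tnfrsf23 was at 0.0135 with the background added back, 0.0218 within replicates 3 and 4 and 0.016 with the title replicate block. Ngfr was at -0.0168 with the background added back and -0.22 within replicates 1 and 2. Within replicates 3 and 4 the second Tnfsf13b probe was at -0.11 and Tnfsf15 at 0.16. With the title block Tnfrsf1b's second probe was at 0.0546 and Tnfrsf25 at -0.066. Without 1 array, log2 fold changes ran from -0.173 to 0.058 and -0.0239 to 0.229 for the Tnfrsf14 probes, -0.110 to 0.0272 for Tnfrsf23, -0.176 to 0.184 and -0.0317 to 0.260 for the Ngfr probes, -0.107 to 0.018 for Tnfrsf1b's second probe, -0.0423 to 0.190 for Tnfrsf25, -0.186 to 0.00245 for Tnfrsf18 and -0.0744 to 0.00538 for Tnfsf9. The cause was not tested. Signal near the detection limit bounds what can be said of Tnf, Cd70, Tnfsf11, Tnfsf15, Ngfr and Tnfrsf18, and of the second probes of Tnfrsf11a and Tnfsf13b.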
